A study of Mus musculus with 8 samples.

Results

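Imprinted genes were measured in BMEL cells, a line of bipotential progenitors from embryonic mouse liver, kept in 3 media. Genes were chosen as a list of 46 known imprinted mouse genes, grouped by the chromosomal cluster they belong to. Of these, 44 had at least 1 probe that matched through a RefSeq accession, 73 probes in all, while no probe matched H19 or Rian. The test covered the 27 members that were well above background, by the scanner's own mark, on at least 2 arrays. They are 27 of the 14041 genes tested, and 61.4% of the matched members were tested, against 68.0% of all 20656 matched genes. By RefSeq, the Igf2r-Airn cluster lies on chromosome 17, the Kcnq1ot1, Peg3 and Snrpn-Ube3a clusters on chromosome 7, Dlk1-Dio3 on chromosome 12, Peg10 and Mest on chromosome 6, Grb10 on chromosome 11, Gnas and Nnat on chromosome 2 and Peg13-Trappc9 on chromosome 15. Positions of probes are not given, since the array was designed on another build, and the promoter windows below carry their own build.

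There were 2 samples labelled DIFF, 3 labelled CM and 3 labelled NoRX, each on 1 one-colour Agilent array. One label gives both DIFF samples the replicate number 1, although their titles number them 1 and 2, so whether n = 2 in DIFF stands for 2 separate samples is not settled. All came from the same line, and the labels name no allele, agent, dose or time beside the medium. The series title gives the question as how liver progenitor cells respond to conditioned medium of amniotic epithelial cells from humans. The labels leave the media names unexplained, and nothing there says whether replicates were separate cultures, so p-values measure the spread between these arrays, which may be technical.

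An imprinted gene is read mainly from the copy inherited from the mother or mainly from the copy inherited from the father. The choice is carried by DNA methylation laid down in the germ line at imprinting control regions, which act on whole clusters of genes, often through a long noncoding RNA that silences its neighbours in cis. Many members regulate growth, cell division and nutrient handling in the fetus, the placenta and the fetal liver, and several are imprinted only in placenta or brain. These arrays measure RNA from both copies together and so say nothing of which copy was read. In RNA from a whole culture, fewer cells that express a gene and less RNA per cell cannot be told apart.

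DIFF replicate 2 had 46.4% of its spots well above background, where the other arrays had 50.8% to 53.5%. It also held 1159 spots with uneven local background, against 3 to 90 elsewhere. The DIFF arrays correlated at 0.960 across genes. Of the 27 members, 25 were lower on DIFF replicate 2 than on DIFF replicate 1, with a median difference of -0.29, as were 93.0% of all genes with a median of -0.26, so most genes share this shift between the DIFF arrays. By the file headers, row 1 of the slide carried all NoRX samples with CM replicate 1, and row 2 carried CM replicates 2 and 3 with both DIFF samples, so DIFF and NoRX share no row, and a row block between them rests on CM, which lies in both. Row 1 holds a single CM array, so its within-row values set 1 array against 3 and assume that this array varies like the NoRX arrays. The 13 liver progenitor and hepatocyte markers, among them Afp, Alb, Hnf4a and Krt19, were all measured, and 12 to 13 of them were well above background on all arrays of a group.

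Values below are log2 signals relative to the 75th percentile of their own array. A difference of 1 is a 2-fold change, errors of differences are SE from the fit, and a gene is said to have risen or fallen when its adjusted p in limma was under 0.05 over all genes tested. Levels of different genes come from different probes and are not set against each other.

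Most members differed between DIFF and CM. For DIFF against CM, 22 of the 27 members passed the test, 6 higher and 16 lower in DIFF, and 11 of them by at least 2-fold. Over all genes 59.1% were called, 23.6% higher and 35.5% lower, and 20.3% were called with at least a 2-fold difference. The median difference was -0.49 over the 27 members and -0.11 over all genes. For DIFF against NoRX, 13 members passed, 5 higher and 8 lower, 4 of them by at least 2-fold, beside 42.1% of all genes called, 14.0% higher, 28.1% lower and 12.4% with at least 2-fold. Here the medians were -0.24 over the members and -0.10 over all genes. For CM against NoRX, 13 members passed, 10 higher and 3 lower, 4 of them by at least 2-fold, beside 52.2% of all genes called, 26.9% higher, 25.3% lower and 11.4% with at least 2-fold. The medians were 0.19 over the members and 0.01 over all genes.

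The share of members called was thus 81.5% beside 59.1% of all genes for DIFF against CM, 48.1% beside 42.1% for DIFF against NoRX and 48.1% beside 52.2% for CM against NoRX. The last 2 shares lie near their background, and no test of the first was made. Another 5 members passed in no comparison, which were Cd81, Mirg, Ppp1r9a, Ndn and Mkrn3, while 6 passed in all 3. The shares of all genes with these patterns were not counted, so neither count is read as a trait of imprinted genes. The split of calls by direction in the DIFF comparisons moved with single arrays. For DIFF against NoRX, members were 8 higher and 6 lower without DIFF replicate 2 and 4 higher and 12 lower without DIFF replicate 1, while all genes were 3766 higher and 3367 lower without the first of these and 1752 and 6729 without the second. Members were 3 higher for that comparison without NoRX replicate 1 or NoRX replicate 2. For DIFF against CM, members were 7 higher and 14 lower without DIFF replicate 2 and 6 and 16 without DIFF replicate 1, and all genes 4706 and 4382, and 2968 and 6815. With the DIFF arrays averaged to 1 sample, 22, 16 and 15 members passed for DIFF against CM, DIFF against NoRX and CM against NoRX. The comparisons share arrays, so their calls are not independent of each other. With slide row as a block, 21, 8 and 10 members passed for DIFF against CM, DIFF against NoRX and CM against NoRX. Within row 2 alone, 19 members and 6186 of 14041 genes passed for DIFF against CM, and within row 1 alone 17 members and 7677 genes passed for CM against NoRX. When arrays were centred on their median, the median of all genes moved to 0.06 for DIFF against CM and 0.05 for DIFF against NoRX. The calls over all genes then numbered 3937 higher and 3183 lower for DIFF against CM, against 3315 and 4986 with the 75th percentile, and 2400 higher and 2133 lower for DIFF against NoRX, against 1962 and 3946. The member calls became 6 higher and 13 lower for DIFF against CM and 5 higher and 5 lower for DIFF against NoRX.

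**Figure D1:**
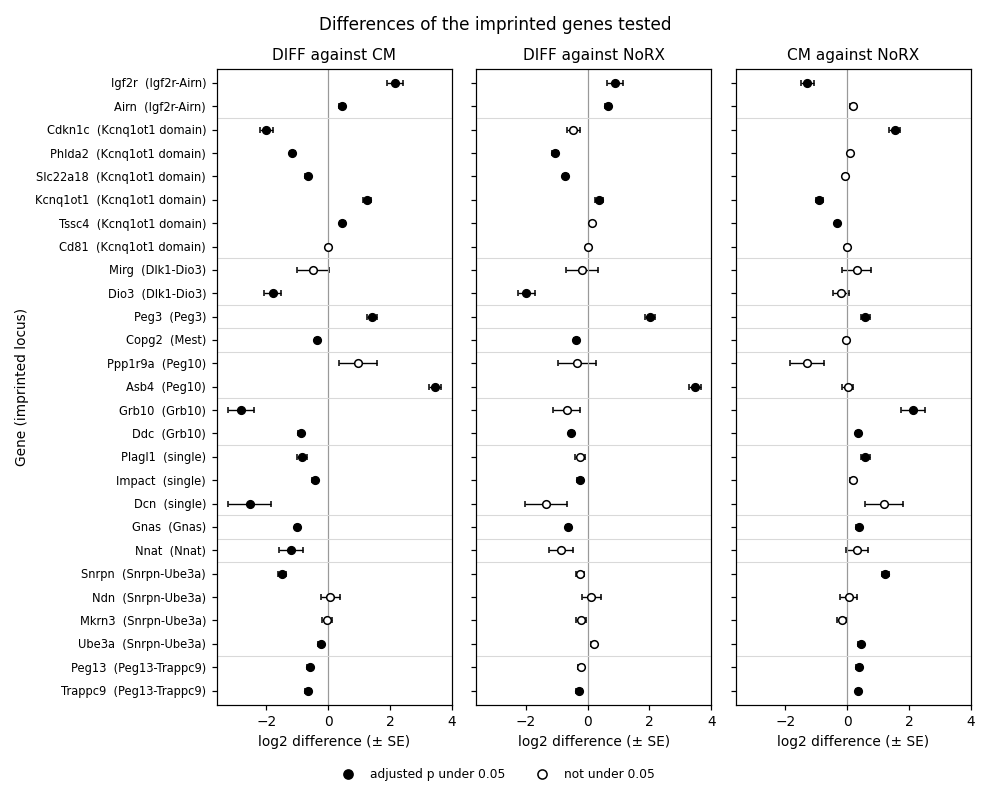
Log2 differences (± SE of the fit, x axis) of the 27 imprinted genes tested, ordered by locus on the y axis, for DIFF against CM, DIFF against NoRX and CM against NoRX. Filled points passed the test (22, 13 and 13 genes), and the largest differences are those of Asb4 in both DIFF comparisons, at 3.44 and 3.46.

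Of the 17 members that were not tested, 14 were well above background on no array and 3 on a single array. Igf2, the fetal growth factor at the head of the imprinted growth pathway, belongs to the first kind in all 3 media. So do the Dlk1-Dio3 genes Meg3, a long noncoding RNA, and Rtl1, a retrotransposon-derived gene of the placenta, and also Ascl2, a transcription factor of the placenta. The others with no array above background were Usp29, Zim1, Mest, Sgce, Zdbf2, Rasgrf1, Slc22a2, Slc22a3, Slc38a4 and Sfmbt2. Dlk1, a surface protein of fetal hepatoblasts, passed only on CM replicate 1, Peg10 only on NoRX replicate 1 and Magel2 only on DIFF replicate 1. For these genes the arrays give a bound and no level: the lowest signal marked well above background ranged between -7.26 and -4.49 from array to array. By the parental copy usually read, 14 of 19 matched genes read from the maternal copy were tested, 11 of 23 read from the paternal copy, and both genes with mixed use, Gnas and Ddc.

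**Figure D2:**
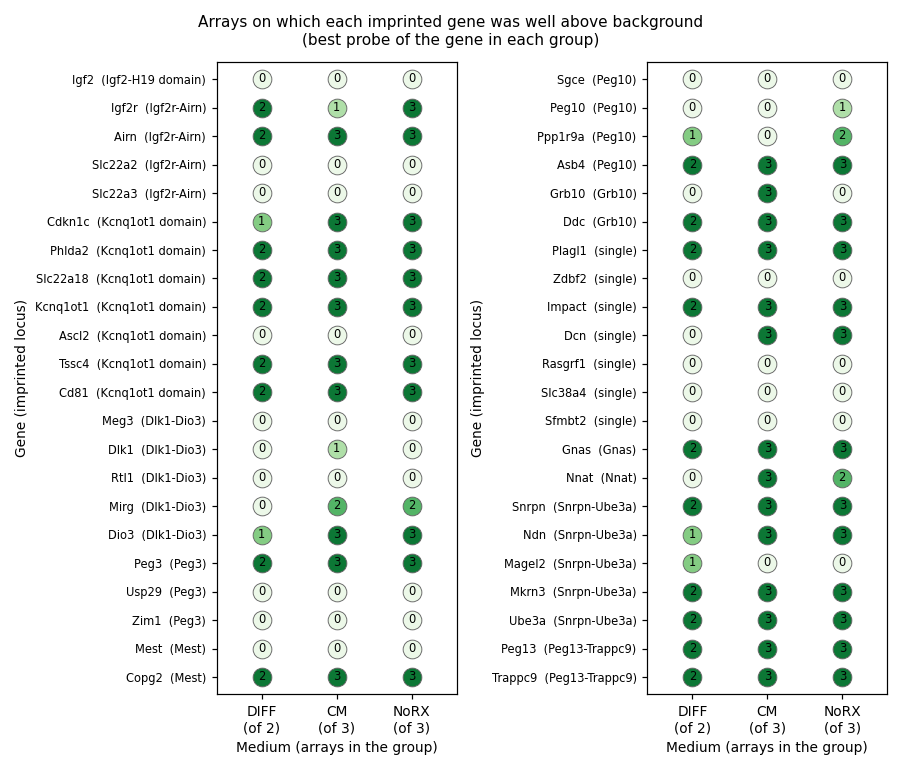
Number of arrays in each group (x axis: DIFF of 2, CM of 3, NoRX of 3) on which each of the 44 matched imprinted genes (y axis, with its locus) was well above background, by its best probe. Igf2, Mest and Meg3 show 0 in all 3 media, while Grb10 shows 3 in CM and 0 in DIFF and NoRX.

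In the Igf2r-Airn cluster, Igf2r moved in opposite directions in the 2 media relative to NoRX. It encodes the receptor that carries Igf2 to the lysosome and so removes it, and it is read from the maternal copy. Igf2r stood at -2.82 and -3.11 on the DIFF arrays. It stood at -5.05, -5.26 and -5.09 on the CM arrays and at -3.93, -3.92 and -3.72 on the NoRX arrays. The 3 groups did not overlap, DIFF being highest and CM lowest, and 1 of 3 CM arrays was well above background. Igf2r was 4.49-fold higher in DIFF than in CM (2.17 ± 0.25, adjusted p = 1.84e-05) and 2.43-fold lower in CM than in NoRX (-1.28 ± 0.22, adjusted p = 0.000572). With normexp background correction these were smaller, at 1.23 (adjusted p = 0.000204) and -0.55 (adjusted p = 0.0248). The rise in DIFF against NoRX (0.89 ± 0.25, adjusted p = 0.0138) missed the threshold without NoRX replicate 1 (0.85, adjusted p = 0.0502) or NoRX replicate 2 (0.86, adjusted p = 0.0508). It also missed it with array weights (adjusted p = 0.263) and with slide row as a block (1.01, adjusted p = 0.151).

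Airn, the noncoding RNA that runs across Igf2r from the paternal copy and silences it in cis in the fetus, rose in DIFF too. It averaged -0.0035 ± 0.16 in DIFF (SD, n = 2), -0.47 ± 0.03 in CM and -0.66 ± 0.09 in NoRX (SD, n = 3 each). The difference was 0.65 ± 0.10 for DIFF against NoRX (adjusted p = 0.000292) and 0.46 ± 0.10 for DIFF against CM (adjusted p = 0.00195). The second of these missed the threshold with array weights (adjusted p = 0.0627) and within row 2 (0.44, adjusted p = 0.0559). CM against NoRX gave 0.19 ± 0.09 (adjusted p = 0.0962), which passed when either DIFF array was left out (adjusted p = 0.0216 without DIFF replicate 1 and 0.0213 without DIFF replicate 2). A second Airn probe read 8.55 on DIFF replicate 2, inside a patch of uneven background there, and between -2.91 and -0.88 on the other 7 arrays, and is not used. The organic cation transporters Slc22a2 and Slc22a3, which Airn silences in placenta, passed the background mark on no array.

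The promoter of Igf2r is shown because it is the DNA that Airn transcription crosses. The window covers 250 bases before the start site and 50 after it, from RefSeq on build GRCm38.p6, at chr17:12769657-12769956 on the minus strand, with CG pairs in capitals.
Igf2r: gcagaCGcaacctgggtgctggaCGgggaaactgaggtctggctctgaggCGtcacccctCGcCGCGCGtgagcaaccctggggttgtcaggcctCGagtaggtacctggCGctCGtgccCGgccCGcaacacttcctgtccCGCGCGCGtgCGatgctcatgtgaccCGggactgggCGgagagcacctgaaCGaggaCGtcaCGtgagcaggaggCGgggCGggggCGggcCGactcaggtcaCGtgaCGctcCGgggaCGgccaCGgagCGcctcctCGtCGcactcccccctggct
It holds 34 CG pairs, more than 92.3% of the windows of all genes, while the window at the start of Airn holds 3.

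In the Kcnq1ot1 cluster 6 of 7 members were tested, and members changed in both directions. Kcnq1ot1 is a long noncoding RNA read from the paternal copy, and on that copy it silences neighbours that the maternal copy expresses. Kcnq1ot1 stood at -0.88 and -1.21 on the DIFF arrays. It stood at -2.18, -2.37 and -2.39 on the CM arrays and at -1.39, -1.49 and -1.38 on the NoRX arrays. The CM arrays were lowest and did not overlap the others. Kcnq1ot1 was 1.86-fold lower in CM than in NoRX (-0.89 ± 0.12, adjusted p = 9.2e-05), where its second probe gave -1.06, and 2.41-fold higher in DIFF than in CM (1.27 ± 0.13, adjusted p = 9.57e-06), where its second probe gave 0.99. Between DIFF and NoRX the probes went opposite ways, at 0.38 ± 0.13 (adjusted p = 0.0417) and -0.07 ± 0.22 (adjusted p = 0.828). The difference of 0.38 missed the threshold without any NoRX array, without CM replicate 2 (adjusted p = 0.0593), without CM replicate 3 (adjusted p = 0.0576) and without DIFF replicate 1 (0.21, adjusted p = 0.17). Without NoRX replicates 1, 2 and 3 in turn it was 0.39, 0.34 and 0.40.

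The window at the start of Kcnq1ot1 is shown since this start lies in the imprinting control region of the cluster. The window is at chr7:143296498-143296797 on the minus strand of GRCm38.p6, with CG pairs in capitals.
Kcnq1ot1: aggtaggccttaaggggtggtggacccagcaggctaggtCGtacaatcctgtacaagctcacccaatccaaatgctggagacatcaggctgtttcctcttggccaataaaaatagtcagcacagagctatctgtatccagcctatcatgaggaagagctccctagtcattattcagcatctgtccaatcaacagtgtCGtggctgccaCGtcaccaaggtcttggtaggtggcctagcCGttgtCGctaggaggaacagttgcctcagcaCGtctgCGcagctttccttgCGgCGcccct
It holds 9 CG pairs, more than 54.2% of all windows.

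Cdkn1c encodes the cell cycle inhibitor p57, a brake on cyclin-dependent kinases that is read from the maternal copy and silenced on the other by Kcnq1ot1. Cdkn1c stood at -4.01 and -4.44 on the DIFF arrays, at -2.25, -2.13 and -2.29 on the CM arrays, and at -3.93, -3.53 and -3.82 on the NoRX arrays. The CM arrays stood alone, above every other array. DIFF replicate 2 was not well above background, so the DIFF differences rest in part on a dim signal. It was 2.90-fold higher in CM than in NoRX (1.54 ± 0.19, adjusted p = 4.65e-05) and 4.0-fold lower in DIFF than in CM (-2.0 ± 0.21, adjusted p = 9.38e-06). The differences were 1.51 in row 1, with its single CM array, and -2.01 in row 2. With normexp background correction they were smaller, at 0.83 (adjusted p = 0.00283) and -0.70 (adjusted p = 0.012). DIFF against NoRX gave -0.46 ± 0.21 (adjusted p = 0.101), and -0.67 (adjusted p = 0.0194) without DIFF replicate 1. Of the other tested maternal genes of the cluster, none rose in CM against NoRX. Phlda2 (0.09), Cd81 (0.01) and Slc22a18 (-0.06) were not called there, and Tssc4 fell (-0.32). A link between Kcnq1ot1 and Cdkn1c in these cells was not tested.

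Phlda2, which restrains growth of the placenta and is also read from the maternal copy, fell in DIFF. Phlda2 stood at -0.79 and -0.85 on the DIFF arrays, at 0.30, 0.27 and 0.42 on the CM arrays, and at 0.25, 0.28 and 0.18 on the NoRX arrays. The DIFF arrays lay below all others, while CM and NoRX overlapped. The gene was 2.08-fold lower in DIFF than in NoRX (-1.06 ± 0.09, adjusted p = 2.1e-06) and 2.22-fold lower than in CM (-1.15 ± 0.09, adjusted p = 6.27e-07), with 0.09 ± 0.08 (adjusted p = 0.342) for CM against NoRX. Its neighbour Slc22a18, a transporter of organic cations, was also lowest in DIFF. Slc22a18 averaged 4.73 ± 0.21 in DIFF (SD, n = 2), 5.39 ± 0.07 in CM and 5.45 ± 0.01 in NoRX (SD, n = 3 each), a difference of -0.66 ± 0.09 for DIFF against CM (adjusted p = 7.82e-05) and -0.72 ± 0.09 for DIFF against NoRX (adjusted p = 7.27e-05). CM against NoRX gave -0.06 ± 0.08 (adjusted p = 0.604), and -0.12 (adjusted p = 0.0483) within row 1.

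Tssc4, described in human cells as a spliceosome assembly factor, changed like Kcnq1ot1, on a smaller scale. It averaged 3.04 ± 0.17 in DIFF (SD, n = 2), 2.59 ± 0.03 in CM and 2.91 ± 0.04 in NoRX (SD, n = 3 each). The difference was 0.46 ± 0.08 for DIFF against CM (adjusted p = 0.000629) and -0.32 ± 0.07 for CM against NoRX (adjusted p = 0.00385), the second missing the threshold with slide row as a block (adjusted p = 0.0604) and with normexp background correction (adjusted p = 0.0588). DIFF against NoRX gave 0.14 ± 0.08 (adjusted p = 0.211), and 0.25 (adjusted p = 0.00298) without DIFF replicate 2. Cd81, a tetraspanin at the edge of the cluster, averaged 7.28 ± 0.18 in DIFF (SD, n = 2), 7.27 ± 0.05 in CM and 7.25 ± 0.03 in NoRX (SD, n = 3 each). No Cd81 difference passed (adjusted p = 0.844 to 0.927), although without DIFF replicate 2 both DIFF comparisons did, at 0.13 (adjusted p = 0.0385) against CM and 0.15 (adjusted p = 0.0326) against NoRX.

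**Figure D3:**
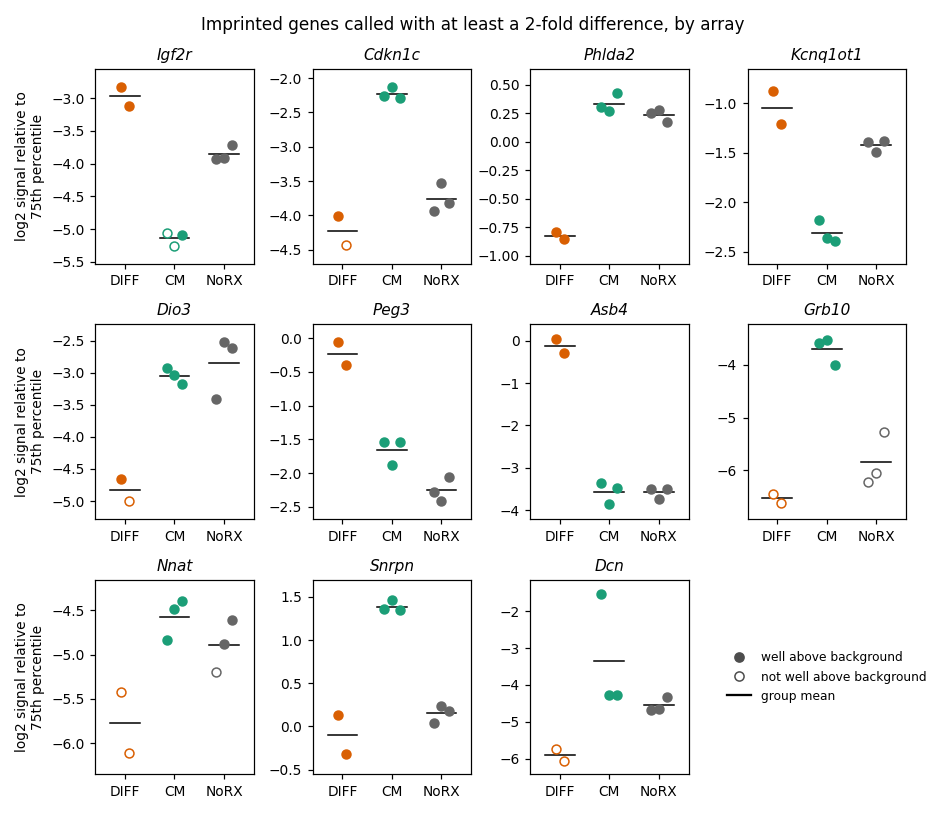
Log2 signal relative to the 75th percentile of the array (y axis) on every DIFF, CM and NoRX array (x axis) for the 11 imprinted genes with a called difference of at least 2-fold. Filled points were well above background and lines are group means; the DIFF arrays stand above all others for Asb4 and Peg3, and the CM arrays for Cdkn1c and Snrpn.

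Asb4 showed the largest change of any member. It is a substrate adaptor of a ubiquitin ligase, read from the maternal copy in the Peg10 cluster. Asb4 stood at 0.04 and -0.28 on the DIFF arrays. It stood at -3.36, -3.86 and -3.47 on the CM arrays and at -3.50, -3.74 and -3.50 on the NoRX arrays. The CM and NoRX arrays overlapped completely, and both DIFF arrays lay above all of them. Asb4 was 10.9-fold higher in DIFF than in CM (3.44 ± 0.19, adjusted p = 5.73e-08) and 11-fold higher than in NoRX (3.46 ± 0.19, adjusted p = 9.19e-08), and within row 2 the first of these was 3.54. CM against NoRX gave 0.02 ± 0.17 (adjusted p = 0.938). A second probe of the same Asb4 transcript was well above background on 0 arrays, so the change rests on 1 of its 2 probes.

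Elsewhere in the Peg10 cluster no gene passed the test. Sgce was well above background on no array and Peg10, a retrotransposon-derived gene of the placenta, on 1 NoRX array. Ppp1r9a, the actin-binding neurabin, averaged -5.34 ± 0.59 in DIFF (SD, n = 2) and -5.01 ± 0.15 in NoRX (SD, n = 3). It was well above background on 1 DIFF, 0 CM and 2 NoRX arrays, so CM has only a bound, and no comparison passed (adjusted p = 0.0669 to 0.692). In CM it was at least 1.65-fold lower than in NoRX by that bound. The fitted difference of -1.30 ± 0.54 (adjusted p = 0.0669) passed without CM replicate 1 (adjusted p = 0.0344) and under 4 other settings. Ppp1r9a met the filter only with its NoRX arrays, where it is high, so these passes are no independent support for the difference.

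Peg3, a zinc finger protein read from the paternal copy and known for growth and maternal care in mice, rose in both media. Peg3 stood at -0.06 and -0.39 on the DIFF arrays. It stood at -1.54, -1.88 and -1.54 on the CM arrays and at -2.28, -2.41 and -2.05 on the NoRX arrays. The 3 groups did not overlap. Peg3 was 4.06-fold higher in DIFF than in NoRX (2.02 ± 0.16, adjusted p = 1.53e-06), 2.69-fold higher in DIFF than in CM (1.43 ± 0.16, adjusted p = 1.58e-05) and 1.51-fold higher in CM than in NoRX (0.59 ± 0.14, adjusted p = 0.00471, and 0.35 with adjusted p = 0.0203 after normexp background correction). A second Peg3 probe, well above background on no NoRX array, was at least 3.66-fold higher in DIFF than in NoRX (2.39 ± 0.39 in the fit, adjusted p = 0.000533). It was 3.05-fold higher in DIFF than in CM (adjusted p = 0.00432). For CM against NoRX the second probe gave 0.78 ± 0.35 (adjusted p = 0.0848). This probe was well above background on 2 DIFF arrays and 1 CM array. It thus met the filter only through DIFF, where it is high, so its calls are no independent support for the rise.

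Usp29 starts beside Peg3 on the opposite strand, and their start windows share 263 bases. It was nonetheless well above background on no array, as was Zim1. The Peg3 window is shown because these shared bases lie before a gene that rose and a gene that was not detected. It lies at chr7:6730370-6730669 on the minus strand of GRCm38.p6, with CG pairs in capitals.
Peg3: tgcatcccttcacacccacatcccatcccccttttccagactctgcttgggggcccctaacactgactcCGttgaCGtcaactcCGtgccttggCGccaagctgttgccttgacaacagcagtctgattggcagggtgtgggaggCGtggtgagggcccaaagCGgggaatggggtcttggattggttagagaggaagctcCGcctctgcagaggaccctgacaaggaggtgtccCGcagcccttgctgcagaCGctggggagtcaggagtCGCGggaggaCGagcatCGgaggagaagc
It holds 13 CG pairs, more than 62.1% of all windows.

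Start windows of 300 bases were found for 37 of the members, 57 windows in all. They held a median of 13 CG pairs, against 7 in the 32851 windows of all genes. The hexamer TGCCGC, the core of the methylated motif bound by Zfp57, a protein that keeps imprints methylated, was searched on both strands (its reverse being GCGGCA, with no overlap of the 2 in a window required). It occurred in 12 of the 57 windows, 21.1%, against 11.6% of all windows. The share was 15.6% in windows of tested members and 29.2% in those of members not tested. Windows of Mest that overlap almost fully were counted separately. The hexamer holds a CG pair, and no allowance was made for the higher CG content of these windows. None of the printed windows holds it. A match is a description of the letters and no evidence of binding.

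At the Dlk1-Dio3 cluster, Dio3 fell in DIFF. It encodes the deiodinase that inactivates thyroid hormone and is read mainly from the paternal copy. Dio3 stood at -4.65 and -5.01 on the DIFF arrays, at -2.93, -3.03 and -3.17 on the CM arrays, and at -3.42, -2.52 and -2.61 on the NoRX arrays. Both DIFF arrays lay below all others and 1 of them was not well above background, while CM and NoRX overlapped. Dio3 was 3.94-fold lower in DIFF than in NoRX (-1.98 ± 0.28, adjusted p = 0.000155) and 3.44-fold lower than in CM (-1.78 ± 0.28, adjusted p = 0.000201). CM against NoRX gave -0.20 ± 0.25 (adjusted p = 0.542). Both calls were lost with array weights (adjusted p = 0.0653 and 0.0645) and with normexp background correction, where the differences were -0.51 (adjusted p = 0.115) and -0.33 (adjusted p = 0.257). Mirg, a maternally read RNA that hosts microRNAs, averaged -4.52 ± 0.93 in CM and -4.83 ± 0.38 in NoRX (SD, n = 3 each). Mirg was well above background on 0 DIFF, 2 CM and 2 NoRX arrays, and it passed in no comparison (adjusted p = 0.435 to 0.802), save for CM against NoRX within row 1 (1.32, adjusted p = 0.025).

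In the Grb10 cluster both genes were higher in CM than in NoRX. Grb10 is an adaptor that dampens signalling from the insulin and Igf1 receptors, read from the maternal copy in most tissues. Grb10 stood at -6.44 and -6.62 on the DIFF arrays, at -3.58, -3.54 and -4.01 on the CM arrays, and at -6.22, -6.05 and -5.28 on the NoRX arrays. It was well above background on all 3 CM arrays and on none of the others. It entered the test through CM, the group where it is high, so its call is no independent support for the difference. Grb10 was at least 2.94-fold higher in CM than in NoRX (2.14 ± 0.38 in the fit, adjusted p = 0.000755) and, in DIFF, at least 2.28-fold lower than in CM (-2.82 ± 0.43, adjusted p = 0.000178). The bounds set the CM mean against the higher, per array, of the dim signal and the lowest signal well above background. Leaving out 1 array at a time, they ranged between 2.37 and 3.33 for CM against NoRX and between 1.72, without DIFF replicate 1, and 3.01 for DIFF against CM. With normexp background correction the differences were 0.55 (adjusted p = 0.113) and -0.10 (adjusted p = 0.791). DIFF and NoRX are both below background, so no fold is given between them.

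Ddc, the decarboxylase that makes dopamine and serotonin and that is imprinted in heart, neighbours Grb10. It averaged 5.52 ± 0.17 in DIFF (SD, n = 2), 6.41 ± 0.04 in CM and 6.04 ± 0.06 in NoRX (SD, n = 3 each). Ddc fell by 0.88 (SE 0.08) in DIFF against CM (adjusted p = 4.43e-06) and by 0.52 (SE 0.08) against NoRX (adjusted p = 0.000492), and rose by 0.37 (SE 0.08) in CM against NoRX (adjusted p = 0.00192). A second Ddc probe gave -1.04, -0.58 and 0.46 for the same comparisons. The CM rise missed the threshold with slide row as a block (0.32, adjusted p = 0.0588).

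Loss of the Snrpn-Ube3a cluster on the paternal copy underlies Prader-Willi syndrome in humans, and loss on the maternal copy Angelman syndrome. In CM against NoRX, 2 of the 4 tested genes of the cluster rose, Snrpn and Ube3a. Over all genes 52.2% were called there, 26.9% of them higher, so the count does not set the cluster apart. Snrpn encodes a core protein of the spliceosome and is read from the paternal copy. Snrpn stood at 0.13 and -0.32 on the DIFF arrays, at 1.36, 1.46 and 1.34 on the CM arrays, and at 0.04, 0.24 and 0.19 on the NoRX arrays. The CM arrays lay above all others, and DIFF and NoRX overlapped. Snrpn was 2.35-fold higher in CM than in NoRX (1.23 ± 0.11, adjusted p = 4.63e-06) and 2.79-fold lower in DIFF than in CM (-1.48 ± 0.12, adjusted p = 1.36e-06), with 1.12 and -1.40 at a second probe. DIFF against NoRX gave -0.25 ± 0.12 (adjusted p = 0.129), and -0.47 (adjusted p = 0.0013) without DIFF replicate 1.

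Ube3a, a ubiquitin ligase imprinted in neurons, averaged 0.13 ± 0.15 in DIFF (SD, n = 2), 0.38 ± 0.05 in CM and -0.06 ± 0.02 in NoRX (SD, n = 3 each). It was higher in CM than in NoRX by 0.44 ± 0.08 (adjusted p = 0.000813). DIFF against CM gave -0.24 ± 0.09 (adjusted p = 0.0354), a call that was lost when any array but DIFF replicate 1 was left out, with values between -0.26 and -0.13, the smallest without DIFF replicate 2 (adjusted p = 0.109). It was also lost when arrays were centred on the median (-0.07, adjusted p = 0.677). Against NoRX the DIFF value was 0.20 ± 0.09 (adjusted p = 0.103), and 0.30 (adjusted p = 0.00462) without DIFF replicate 2. Ndn, the growth suppressor necdin, averaged -4.29 ± 0.30 in DIFF (SD, n = 2), -4.36 ± 0.13 in CM and -4.41 ± 0.34 in NoRX (SD, n = 3 each). Mkrn3, a ring finger protein tied to the timing of puberty, averaged -2.76 ± 0.15 in DIFF (SD, n = 2), -2.73 ± 0.15 in CM and -2.56 ± 0.10 in NoRX (SD, n = 3 each). Neither passed in any comparison (adjusted p = 0.34 to 0.9), although this does not show equal levels.

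Gnas, Peg13 and Trappc9 shared an order over the media, with CM highest and DIFF lowest. This order is not particular to them, since the means of Cdkn1c, Ddc, Snrpn and Plagl1, among other members, had it too. Gnas encodes the stimulatory G protein subunit and several imprinted transcripts. Its 3 probes matched 3 separate RefSeq transcripts, and the 2 not used were well above background on no array. Gnas averaged 6.55 ± 0.17 in DIFF (SD, n = 2), 7.55 ± 0.03 in CM and 7.17 ± 0.06 in NoRX (SD, n = 3 each). Gnas was 2.0-fold lower in DIFF than in CM (-1.0 ± 0.08, adjusted p = 1.36e-06), 1.54-fold lower in DIFF than in NoRX (-0.62 ± 0.08, adjusted p = 0.000112) and 1.30-fold higher in CM than in NoRX (0.38 ± 0.07, adjusted p = 0.0013).

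Peg13, a paternally read noncoding RNA within Trappc9, averaged 3.96 ± 0.22 in DIFF (SD, n = 2), 4.56 ± 0.04 in CM and 4.17 ± 0.04 in NoRX (SD, n = 3 each). Trappc9, a vesicle tethering protein read preferentially from the maternal copy in brain, averaged 3.41 ± 0.21 in DIFF (SD, n = 2), 4.05 ± 0.06 in CM and 3.69 ± 0.06 in NoRX (SD, n = 3 each). Both fell in DIFF against CM, Peg13 by 0.60 (SE 0.09, adjusted p = 0.00017) and Trappc9 by 0.64 (SE 0.09, adjusted p = 0.000124). Both rose in CM against NoRX, Peg13 by 0.39 (SE 0.08, adjusted p = 0.00205) and Trappc9 by 0.36 (SE 0.08, adjusted p = 0.00363), calls that were lost with slide row as a block (adjusted p = 0.0545 and 0.0949). A second Trappc9 probe gave 0.01 ± 0.19 there (adjusted p = 0.967) and -0.28 ± 0.21 for DIFF against CM (adjusted p = 0.282). In DIFF against NoRX, Trappc9 gave -0.28 ± 0.09 (adjusted p = 0.0336), which missed the threshold without any of the arrays except DIFF replicate 1, -0.13 being the smallest, without DIFF replicate 2, and -0.43 (adjusted p = 0.0003) the largest, without DIFF replicate 1. Peg13 gave -0.21 ± 0.09 (adjusted p = 0.0852), and -0.37 (adjusted p = 0.000185) without DIFF replicate 1.

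Plagl1, a zinc finger transcription factor that halts the cell cycle and controls other imprinted genes, is read from the paternal copy. It averaged -2.89 ± 0.0047 in DIFF (SD, n = 2), -2.06 ± 0.18 in CM and -2.65 ± 0.20 in NoRX (SD, n = 3 each). Plagl1 was 1.51-fold higher in CM than in NoRX (0.59 ± 0.15, adjusted p = 0.00645) and 1.78-fold lower in DIFF than in CM (-0.84 ± 0.17, adjusted p = 0.00132). A second probe gave 0.12 ± 0.20 (adjusted p = 0.637) and -0.20 ± 0.22 (adjusted p = 0.465) for these comparisons, so the change rests on 1 of its probes. The call for DIFF against CM was lost with array weights (adjusted p = 0.106) and normexp background correction (adjusted p = 0.0957). DIFF against NoRX gave -0.24 ± 0.17 (adjusted p = 0.281).

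Impact, which blocks activation of the stress kinase Gcn2, and Copg2, a subunit of the coat on Golgi vesicles, were both tested at 2 probes. At its brighter probe, Impact averaged 1.70 ± 0.19 in DIFF (SD, n = 2), 2.13 ± 0.02 in CM and 1.94 ± 0.01 in NoRX (SD, n = 3 each). It fell by 0.43 (SE 0.09) in DIFF against CM (adjusted p = 0.00122). DIFF against NoRX, -0.24 ± 0.09 (adjusted p = 0.043), missed the threshold without any of the arrays except DIFF replicate 1, and was -0.11 (adjusted p = 0.0966) without DIFF replicate 2 and -0.37 (adjusted p = 0.000147) without DIFF replicate 1. The other Impact probe was 1.99-fold lower in DIFF than in CM (-0.99 ± 0.24, adjusted p = 0.00386) and 1.75-fold lower than in NoRX (-0.80 ± 0.24, adjusted p = 0.0187). CM against NoRX, 0.19 ± 0.08 (adjusted p = 0.059), passed when either DIFF array was left out (adjusted p = 0.000925 and 0.000917). Copg2 averaged 2.91 ± 0.12 in DIFF (SD, n = 2), 3.26 ± 0.02 in CM and 3.28 ± 0.06 in NoRX (SD, n = 3 each), with differences of -0.35 ± 0.08 for DIFF against CM (adjusted p = 0.00251) and -0.37 ± 0.08 for DIFF against NoRX (adjusted p = 0.00284). For CM against NoRX, Copg2 gave -0.02 ± 0.07 (adjusted p = 0.849). Its call for DIFF against NoRX was lost with slide row as a block (-0.38, adjusted p = 0.107) and with array weights (adjusted p = 0.0534). That for DIFF against CM was lost within row 2 (-0.35, adjusted p = 0.0899). Centred on the array medians, both Copg2 calls were lost, at -0.18 (adjusted p = 0.284) and -0.21 (adjusted p = 0.249), and so was that of Impact for DIFF against CM, at -0.26 (adjusted p = 0.0999). Mest, the partner of Copg2, was well above background on no array.

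Nnat and Dcn were lower in DIFF than in CM, both at signals near background. Nnat encodes neuronatin, a small membrane protein read from the paternal copy. Nnat stood at -5.42 and -6.11 on the DIFF arrays, neither well above background, at -4.84, -4.49 and -4.40 on the CM arrays, and at -5.20, -4.88 and -4.61 on the NoRX arrays. DIFF lay below all other arrays, and CM and NoRX overlapped. Nnat was lower in DIFF than in CM by at least 0.32 on the log2 scale (-1.19 ± 0.39 in the fit, adjusted p = 0.0211). That call was lost without CM replicate 2 (-1.15, adjusted p = 0.0611), CM replicate 3 (-1.10, adjusted p = 0.0644) or DIFF replicate 2 (-0.84, adjusted p = 0.097), and with normexp background correction the sign turned (0.28, adjusted p = 0.396). Without DIFF replicate 1 no bound was left, and without DIFF replicate 2 it was 0.73. CM against NoRX gave 0.32 ± 0.35 (adjusted p = 0.475). DIFF against NoRX had a bound of 0.0025 on the log2 scale (-0.87 ± 0.39 in the fit, adjusted p = 0.0961). Without DIFF replicate 1 the fitted difference was -1.22.

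Dcn encodes decorin, a collagen-binding proteoglycan of connective tissue whose imprinting is known from placenta. Dcn stood at -5.74 and -6.04 on the DIFF arrays, neither well above background, at -1.53, -4.27 and -4.27 on the CM arrays, and at -4.68, -4.66 and -4.31 on the NoRX arrays. CM replicate 1 stood far above the other CM arrays, which were close to NoRX. Dcn was at least 2.91-fold lower in DIFF than in CM (-2.54 ± 0.68 in the fit, adjusted p = 0.00777), but without CM replicate 1 the bound was 1.55-fold and the fitted difference -1.62. With array weights (adjusted p = 0.342) and with normexp background correction (-0.30, adjusted p = 0.569) it missed the threshold. CM against NoRX gave 1.19 ± 0.61 (adjusted p = 0.127), but 3.02 (adjusted p = 0.000322) within row 1, where CM replicate 1 is the only CM array. In DIFF, Dcn was at least 1.27-fold lower than in NoRX (-1.34 ± 0.68 in the fit, adjusted p = 0.14). The fitted difference passed without CM replicate 1 (adjusted p = 0.0091), and without DIFF replicate 1 no bound was left.

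Of 10 stellate cell and fibroblast markers, 6 were tested, and Pdgfrb, Lum, Thy1 and Lrat were not. Their summed relative signal lay between 0.243 and 0.368 on the DIFF arrays, between 1.54 and 1.58 on the CM arrays and between 0.686 and 0.720 on the NoRX arrays. The sum was highest in CM and lowest in DIFF, but single markers differed: for CM against NoRX, Pdgfra was 2.38-fold higher (adjusted p = 0.000116) and Des 3.83-fold higher (adjusted p = 7.51e-07), while Col1a1 was 1.58-fold lower (adjusted p = 0.0066). Of 7 macrophage and leukocyte markers 3 were tested, Csf1r, Cd14 and Itgam, and their sum had the same order, at 10.8 to 13.1 on the DIFF arrays, 21.5 to 22.5 on the CM arrays and 17.1 to 18.6 on the NoRX arrays. Itgam alone did not follow this order, at 3.54 in CM and 3.61 in NoRX. Endothelial and neuronal marker sums were also lowest in DIFF, at 8.0 to 9.49 and 9.57 to 11.1. The erythroid sum was lowest in CM, at 0.425 to 0.482, and the trophoblast sums in NoRX overlapped those of both media. Such sums are led by the brightest probes, and single markers went other ways. The neuronal markers Tubb3 and Syp were highest in DIFF, at -3.03 and 2.05. Among endothelial markers Vwf was lowest in CM, at -3.18 against -2.54 in DIFF. The erythroid marker Epor was lowest in DIFF, at -2.74 against -2.16 in CM. The part of any of these cell types in the Dcn values was not tested.

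**Figure D4:**
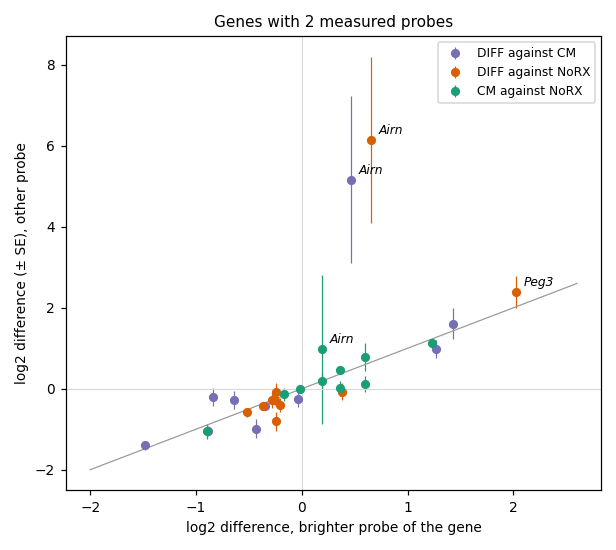
Log2 difference of a gene at its brighter probe (x axis) against that at another measured probe of the same gene (y axis, ± SE of the fit), for the members with 2 probes above the filter and the 3 comparisons in different colours. The line marks equal values. Airn stands apart, at 6.14 and 5.17 in the DIFF comparisons, where its other probe lay in a patch of uneven background on DIFF replicate 2.

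Genes that keep imprints were measured as well. Of 22 listed genes for DNA methylation and imprint maintenance, 20 were tested. For DIFF against CM, 6 were higher and 6 lower, for DIFF against NoRX 0 higher and 5 lower, and for CM against NoRX 3 higher and 8 lower. These are 60%, 25% and 55% of those tested, beside 59.1%, 42.1% and 52.2% of all genes. In CM against NoRX, Dnmt3b, a methyltransferase that adds new methyl groups, fell by 1.15 (SE 0.14, adjusted p = 4.78e-05). Uhrf1, which brings the maintenance enzyme Dnmt1 to copied DNA, fell there by 1.05 (SE 0.08, adjusted p = 2.06e-06), and Hells, a chromatin remodeller for methylation, by 1.05 (SE 0.14, adjusted p = 0.000103). Tet3, an enzyme that oxidises methylated cytosine, rose by 0.71 (SE 0.09, adjusted p = 8.72e-05). In DIFF against CM, which shares the CM arrays, Tet3 fell by 1.30 (SE 0.10, adjusted p = 1.04e-06) and Hells rose by 1.18 (SE 0.16, adjusted p = 7.1e-05). Of 10 polycomb genes, all tested, 1 was higher and 5 lower for DIFF against CM, 0 and 2 for DIFF against NoRX, and 3 and 2 for CM against NoRX, which are 60%, 20% and 50% of the list beside the same shares of all genes. Ezh2, the methyltransferase of polycomb complex 2, fell by 0.94 (SE 0.08) in DIFF against NoRX (adjusted p = 1.76e-06).

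Downstream of the ligand, 8 genes of Igf2 signalling and mRNA binding were listed and all tested. Of these, 3 were higher and 2 lower for DIFF against CM, 2 and 2 for DIFF against NoRX, and 4 and 3 for CM against NoRX. The shares were 62.5%, 50% and 87.5%, beside 59.1%, 42.1% and 52.2% of all genes. Irs1, the docking protein of the insulin and Igf1 receptors, fell by 1.27 (SE 0.09) in CM against NoRX (adjusted p = 1.18e-06) and by 0.76 (SE 0.10) in DIFF against NoRX (adjusted p = 0.000141). Another list of 7 held oncofetal liver genes silenced together with H19 after birth and the regulators of such genes, and 5 were tested. For DIFF against CM 2 were higher and 2 lower, for DIFF against NoRX 1 and 2, and for CM against NoRX 3 and 1. These counts mix genes of the programme with their regulators. The shares were 80%, 60% and 80%, beside 59.1%, 42.1% and 52.2% of all genes. Afp, the fetal serum protein, was higher in DIFF by 1.70 ± 0.10 against CM (adjusted p = 9.7e-08) and by 2.19 ± 0.10 against NoRX (adjusted p = 2.16e-08). Zhx2, a repressor of Afp and H19 in adult mouse liver, fell in DIFF by 1.36 (SE 0.18) against CM (adjusted p = 6.74e-05) and by 1.06 (SE 0.18) against NoRX (adjusted p = 0.000758).

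A further 29 imprinted genes outside the list were looked up, of which 19 were tested. For DIFF against CM, 6 were higher and 9 lower, for DIFF against NoRX 2 higher and 8 lower, and for CM against NoRX 4 higher and 7 lower. These are 78.9%, 52.6% and 57.9% of those tested, beside 59.1%, 42.1% and 52.2% of all genes. Atp10a, a flippase of lipid membranes, fell in DIFF by 2.63 (SE 0.12) against CM (adjusted p = 8.81e-09) and by 1.98 (SE 0.12) against NoRX (adjusted p = 1.58e-07). Tnfrsf23, a decoy receptor for Trail near the Kcnq1ot1 cluster, fell by 2.33 (SE 0.09) against CM (adjusted p = 1.98e-09) and by 1.37 (SE 0.09) against NoRX (adjusted p = 2.59e-07). Kcnq1, the potassium channel inside which Kcnq1ot1 is transcribed, rose by 1.88 (SE 0.14) against CM (adjusted p = 7.54e-07) and by 1.40 (SE 0.14) against NoRX (adjusted p = 1.46e-05). Kcnq1 and Kcnq1ot1 are read in opposite directions over shared DNA, and each probe was assigned by its RefSeq accession.

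By the parental copy usually read, 3 of the 14 tested maternal genes were higher and 8 lower for DIFF against CM, and 3 and 6 of the 11 tested paternal genes, beside 23.6% higher and 35.5% lower over all genes. For DIFF against NoRX the counts were 2 higher and 4 lower among maternal genes, and 3 and 2 among paternal genes, beside 14.0% and 28.1%. For CM against NoRX they were 4 and 2 among maternal genes, and 4 and 1 among paternal genes, beside 26.9% and 25.3%. In each comparison genes of both kinds thus stood on both sides, and no test of a difference between the kinds was made.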

How the data were processed

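RNA of 8 BMEL samples was hybridised to 1 Agilent SurePrint G3 slide, labelled with Cy3, per the labels. The submitters' processing notes name Agilent Feature Extraction 11.0.1.1 for the spot intensity, and the deposited processed signal is background-subtracted, per the file headers. The deposited flags for outliers, uneven background and well above background (other values, not intensities) are the scanner software's own, per the file headers. A value table deposited for the series repeats each array's intensity (largest difference 0) and gave the same results, with column medians between 22.2 and 31.3 and neither centring between arrays nor a log scale.

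From there, log2 signals were taken minus the 75th percentile of each array, without control spots and outliers. Of 55681 probes, 27229 matched a RefSeq accession (assembly GRCm38.p6). For each gene the brightest probe well above background on at least 2 arrays was used. Tests used R 4.3.3 and limma 3.58.1 (lmFit, eBayes with a trend, two-sided, Benjamini-Hochberg over 14041 genes, threshold 0.05) in 1 fit of all arrays. The number of arrays limits the precision. The fit was tested on simulated arrays with known changes. Of genes changed 2-fold, 84%, 88% and 80% were recovered for CM against NoRX, DIFF against NoRX and DIFF against CM. Of 13802 unchanged genes, 9, 561 and 547 were called in these comparisons. In both DIFF comparisons of the simulation the unchanged genes called outnumbered the changed ones, so the threshold did not limit the share of false calls there. Of the 14002 genes simulated, 13802 were unchanged, which leaves far fewer changed genes than were called in the data. The simulation thus does not give the share of false calls in the data.

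The members and gene lists were chosen with earlier results of these data known. All members are named, those with a called difference of at least 2-fold with every array, and of other lists up to 4 genes past the test with the largest differences. Alternatives covered scaling, background correction, filters, probes, spread, slide row, the replicate number as a block and each array left out. Within-row fits and bounds with each array left out were added after seeing the data. Figures were drawn with matplotlib 3.10.9.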

Additional observations from a re-analysis of the deposited data

How the results depend on the processing

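With slide row as a block, 4788 genes were called for CM against NoRX and 2803 for DIFF against NoRX, against 7326 and 5908 without it, and 8 imprinted genes for DIFF against NoRX, against 13. Array weights gave 5311 genes for DIFF against CM and 2988 for DIFF against NoRX, against 8301 and 5908, and 7 imprinted genes for DIFF against NoRX. Every other alternative kept the total counts within 1.5 times, but not the counts by direction: for DIFF against NoRX, genes called higher numbered 3766 without DIFF replicate 2, against 1962, and genes called lower 6729 without DIFF replicate 1, against 3946. The cause of these changes was not tested. Of the calls, 13 of 22 for DIFF against CM, 7 of 13 for DIFF against NoRX and 7 of 13 for CM against NoRX were kept in every alternative that tested the gene. The calls lost under at least 1 alternative were Airn, Copg2, Dcn, Dio3, Grb10, Impact, Nnat, Plagl1 and Ube3a for DIFF against CM, Copg2, Dio3, Igf2r, Impact, Kcnq1ot1 and Trappc9 for DIFF against NoRX, and Ddc, Grb10, Peg13, Plagl1, Trappc9 and Tssc4 for CM against NoRX. Nnat reversed for DIFF against CM, at 0.28 with normexp background correction, which uses the median signals with an offset of 50. Another 20 of 81 differences changed sign under some alternative while called in neither, among them Dcn for DIFF against NoRX, at 1.40 with slide row as a block.

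No pairing of the samples by the replicate numbers in the titles was seen. Deviations of same-numbered arrays correlated between -0.06 and 0.17, and not all over 0.1. Deviations from the means of such small groups depend on each other, so this check cannot exclude pairing. With the replicate number as a block, 20 imprinted genes passed for DIFF against CM, 10 for DIFF against NoRX and 13 for CM against NoRX. The match of probes by gene name and the scan as a block were not run, since the files used here gave no gene name and 1 scan time. Where a gene is not well above background in a group, only the bound holds there, and a signal printed for that group is no level. DIFF rests on 2 arrays.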
